A study of Mus musculus with 2 samples.

Results

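The miR-130/miR-301 family is taken here as 4 of the 2202 annotated microRNA hairpins counted, Mir130a, Mir301, Mir130b and Mir301b. These members were chosen by gene symbol and matched by Ensembl gene identifier, and other hairpins with the same seed are given apart. Mir130b and Mir301b lie next to each other and form the Mir130b/Mir301b cluster, while Mir130a and Mir301 are separate loci. Reads were counted in whole heart tissue of female B6CASTF1/J mice aged 25 days, first-generation hybrids of C57BL/6J and CAST/EiJ parents for which the labels name neither an engineered allele nor a treatment. The labels give 2 biological replicates of this single group and number the animals separately, although both carry the same donor identifier, and a free-text label gives the unit of age as months. Reading the libraries as 2 animals rests on those labels, and no control or second condition was analysed. Mature microRNAs are cut from a folded hairpin, and each value below is the number of reads assigned to a whole hairpin, with no split into its 5p and 3p arms.

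MicroRNAs lower the output of messenger RNAs that pair with their seed, the bases near the 5′ end of the mature strand, so hairpins with a common seed form a family. The miR-130/miR-301 family is known for repressing the nuclear receptor gene Pparg and for roles in blood vessels. In human endothelial cells miR-130a has been linked to vessel growth through the homeobox genes Hoxa5 and Meox2, and in cardiomyocytes it has been linked to the translation of Zfpm2, the GATA cofactor also called FOG-2. In the pulmonary vasculature the family is known as a regulator of vessel stiffness and hypertension.

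The 3p arms are shown because their seed, in capitals (bases 2 to 8 from the 5′ end), defines the family. All sequences are from RefSeq on the GRCm38.p6 assembly.
mmu-miR-130a-3p: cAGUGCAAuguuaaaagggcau
mmu-miR-130b-3p: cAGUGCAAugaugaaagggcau
mmu-miR-301a-3p: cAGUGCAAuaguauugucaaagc

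mmu-miR-301b-3p is not shown on its own. The 2 hairpins of the cluster are given whole instead, with the same 7 seed letters in capitals where they occur.
Mir130b: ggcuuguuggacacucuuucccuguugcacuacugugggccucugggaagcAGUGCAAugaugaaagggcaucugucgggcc
Mir301b: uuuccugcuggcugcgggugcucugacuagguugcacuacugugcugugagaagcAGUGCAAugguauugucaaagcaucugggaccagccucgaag

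The 3p arms of miR-130a and miR-130b were nearly identical, and that of miR-301a departed from both after its ninth base. Counting positions from 1 at the 5′ end, miR-130a-3p and miR-130b-3p differed at 2 of 22 bases, U11A and A13G, with the miR-130a base first. miR-130a-3p and miR-301a-3p shared their first 9 bases and differed at 10 of the 22 compared. The 5p arms of miR-301a and miR-301b differed at 3 of 22 bases, and those of miR-130a and miR-130b at 7 of 22. The longest run shared by 2 hairpins of the family was 16 nt, between Mir301 and Mir301b. Against the 1004 other mouse hairpins of the RefSeq table, the longest run was 17 nt for Mir130a, shared with Mir6389, and 16 nt for Mir130b, Mir301 and Mir301b. Matches elsewhere in the genome were not searched.

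A further 4 hairpins carry a mature arm with the same bases 2 to 8, and they are shown because none of them contributed a read.
mmu-miR-130c: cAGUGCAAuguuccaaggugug
mmu-miR-721: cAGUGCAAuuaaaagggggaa
mmu-miR-6341: cAGUGCAAugauauugucacuau
mmu-miR-6389: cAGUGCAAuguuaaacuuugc

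Mir130c, Mir721, Mir6341 and Mir6389 had 0 counts in both libraries. A count of 0 allows up to 3 counts, which is 1.46 CPM in replicate 1 and 1.13 CPM in replicate 2. CPM is the count of a hairpin over the sum of all hairpin counts of its library, times 1000000. Among the hairpins of the RefSeq table with this seed, reads were therefore assigned to the chosen members only.

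The hairpins sit in 3 places of the genome with different neighbours (mm10, GENCODE M21). Mir130a (ENSMUSG00000065484.1) lies on chromosome 2 from 84741115 to 84741178 on the minus strand and overlaps no annotated gene other than itself. Its nearest protein-coding genes are Gm19426, 990 bp away on the same strand, and Ypel4, 2459 bp away on the opposite strand. Mir301 (ENSMUSG00000065589.1) lies on chromosome 11 from 87113004 to 87113089 on the plus strand. It is intronic in 2 of the 3 annotated transcripts of Ska2, on its strand, and outside the other. It lies 3770 bp from the start of that gene, which encodes a subunit of the spindle and kinetochore complex of dividing cells.

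Mir130b (ENSMUSG00000065572.1) lies on chromosome 16 from 17124061 to 17124142 on the minus strand, and Mir301b (ENSMUSG00000076288.1) from 17124400 to 17124496. The gap between them is 257 bp. Both are intronic in 3 of the 8 annotated transcripts of 2610318N02Rik, on its strand, and outside the other 5. Mir301b lies 671 bp and Mir130b 1025 bp from the start of that gene. Host gene messenger RNA was not measured here.

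**Figure D1:**
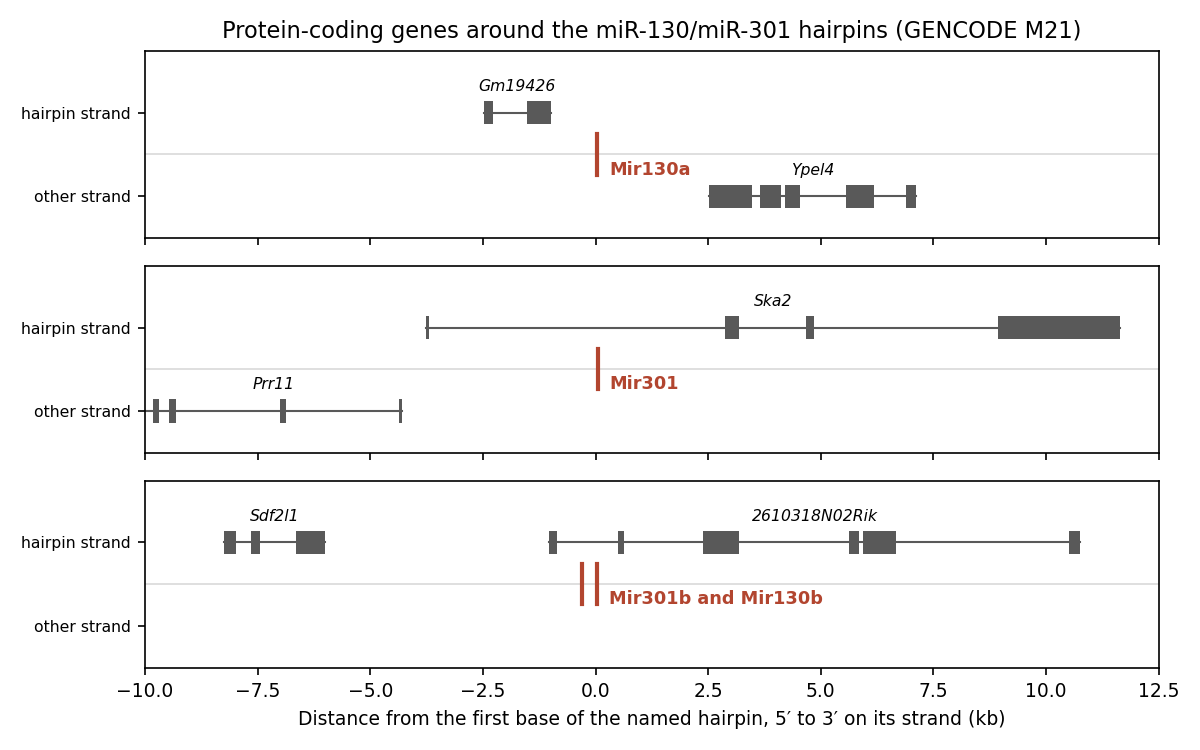
Protein-coding genes around the 3 loci, drawn to scale; the x axis is the distance in kb from the first base of Mir130a (top), Mir301 (middle) or Mir130b (bottom), 5′ to 3′ on the hairpin's strand. Lines are genes, boxes are exons of all annotated transcripts, and red bars are hairpins. Mir130a stands between genes, Mir301 within Ska2, and Mir301b and Mir130b 257 bp apart near the start of 2610318N02Rik.

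Replicate 1 had 2050498 reads assigned to hairpins and replicate 2 had 2661090, so 1 read equalled 0.488 and 0.376 CPM. A further 38.5% and 41.6% of all reads matched several places and entered no hairpin count. Hairpins of heart muscle were present in both libraries: Mir499, encoded within Myh7b, had 5391 and 6167 counts, and Mir208a, within the myosin gene Myh6, had 3322 and 15598. Intervals are 95% intervals computed from the read counts alone, so they cover counting error only. They are too narrow if PCR copies were counted as separate reads. Errors written with ± are SD with n = 2.

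Mir130a supplied nearly all of the family's reads in both hearts. Its counts were 4841 in replicate 1 and 7518 in replicate 2. These equal 2361 CPM (Wilson interval 2295 to 2428) and 2825 CPM (2762 to 2890), a mean of 2593 ± 328 CPM. Mir130a ranked 40th and 35th among all 2202 hairpins, and it alone made up 90.5% of the family's reads in replicate 1, with an exact interval of 89.7 to 91.2%. In replicate 2 it made up 96.1%, with an interval of 95.7 to 96.5%.

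Mir130b, whose mature 3p arm has almost the same sequence, had about 30 times fewer reads. Each count is of the whole hairpin, and the 5p arms of miR-130a and miR-130b differ at 7 of 22 bases. Replicate 1 held 161 of its reads and replicate 2 held 255, or 78.5 CPM (Wilson interval 67.3 to 91.6) and 95.8 CPM (84.8 to 108), with a mean of 87.2 ± 12.2 CPM. The number of Mir130a reads per Mir130b read was 30.1 in replicate 1 and 29.5 in replicate 2. The mismatches that the authors' alignment allowed are not given in the sources used here, and an exchange of reads between these near-identical 3p arms was not tested.

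Leaving aside Mir301b, which had at most 5 counts, Mir301 was the member whose level was least alike in the 2 hearts. Replicate 1 held 349 of its reads and replicate 2 held 43, or 170 CPM (Wilson interval 153 to 189) and 16.2 CPM (12.0 to 21.8). The mean, 93.2 ± 109 CPM, has an SD larger than itself. Mir301 ranked 122nd in replicate 1 and 220th in replicate 2.

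Mir301b, the second hairpin of the cluster, was close to the limit of detection. No read was assigned to it in replicate 1, where 0 counts allow up to 1.46 CPM, and 5 in replicate 2, or 1.88 CPM (Wilson interval 0.803 to 4.40). Its mean was 0.939 ± 1.33 CPM, again with an SD larger than the mean. A difference between the 2 libraries was not detectable at this depth, and no ratio is given.

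The order of the levels therefore held only at its ends. Mir130a was highest and Mir301b lowest in both libraries. Mir301 exceeded Mir130b in replicate 1, with intervals that do not overlap, while Mir130b exceeded Mir301 in replicate 2, again with intervals apart. Their means, 93.2 and 87.2 CPM, differed by less than the spread of Mir301 between the animals. These are numbers of assigned short fragments, not divided by hairpin length. Whether the sequences of different hairpins were captured equally in the libraries was not tested, so the order is one of reads.

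**Figure D2:**
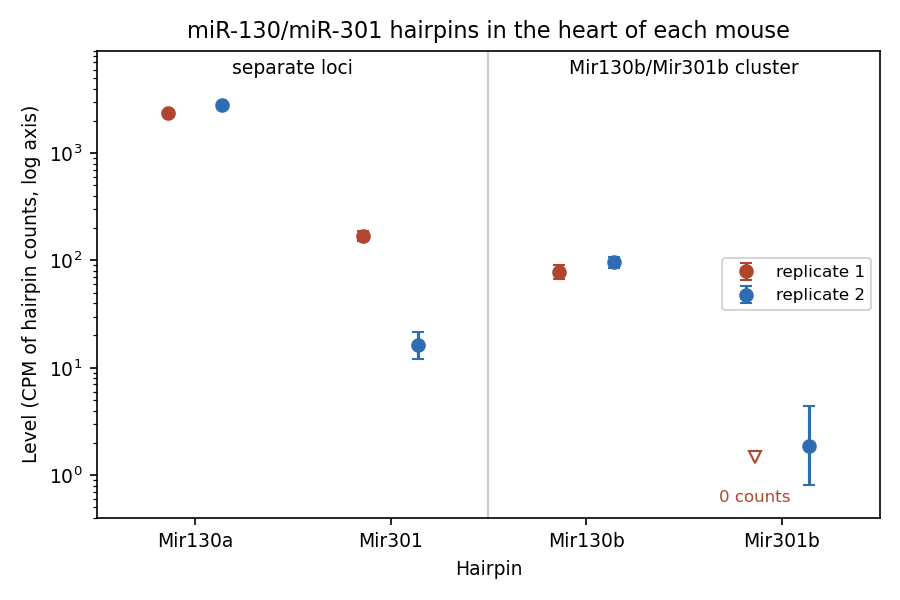
Level of each family member in CPM (log axis) in replicate 1 (red) and replicate 2 (blue), with the separate loci on the left and the cluster on the right. Bars are 95% Wilson intervals, and the open triangle marks the 3 counts that a count of 0 allows. Mir130a stands highest in both hearts, and Mir301 at 170 and 16.2 CPM shows the widest gap between them.

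The members also differed in how they varied between the animals, with Mir301 higher and both miR-130 hairpins lower in replicate 1. Each hairpin was compared with an exact binomial test of its 2 counts after TMM scaling, adjusted by the Benjamini-Hochberg method over 326 hairpins, those reaching 10 counts in either library or in both. That test is of the reads of these 2 libraries and is no test of conditions, and 1 sample per animal allows no test of a difference between animals. Of the 4 members, 3 passed the filter on low counts, Mir301b did not, and all 3 passed the test. Passing it was common, since 62.6% of all tested hairpins did. In replicate 1, 26.4% were higher (86 hairpins) and 36.2% lower (118 hairpins), and with scaling by total count the split was 117 higher and 76 lower.

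Mir301 was higher in replicate 1, with 157 against 17.5 TMM-scaled CPM (log2 ratio of replicate 1 over replicate 2 of 3.10, adjusted exact binomial p = 4.80e-67). The ratio was 8.98 with an exact interval of 6.53 to 12.6. Among the 326 tested hairpins, 3 had a log2 ratio of larger size, and 1 of these, the epithelial Mir205, was higher than Mir301 in this direction. Of the 59 other hairpins whose summed count was within 2-fold of the 392 of Mir301, 2 had a larger size of log2 ratio, and their median size was 0.43.

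Mir130a was lower in replicate 1, with 2180 against 3060 TMM-scaled CPM (log2 ratio -0.49, adjusted exact binomial p = 2.88e-76). Mir130b was lower there by nearly the same step, with 72.5 against 104 TMM-scaled CPM (log2 ratio -0.51, adjusted exact binomial p = 0.000711). Both log2 ratios were smaller in size than the median over all tested hairpins, 0.56. Of the 64 other hairpins with a summed count within 2-fold of that of Mir130b, 29 had a larger size. Their median size was 0.44, below that of Mir130b. For Mir130a, 16 of 29 such hairpins had a larger size, with a median of 0.57. With scaling by total count Mir130b no longer passed (log2 ratio -0.28, adjusted exact binomial p = 0.0764), while Mir130a did. The median log2 ratio of all tested hairpins was -0.09 with TMM and 0.14 by total count. Relative to the TMM median, Mir130a stood at -0.40, Mir130b at -0.42 and Mir301 at 3.18.

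**Figure D3:**
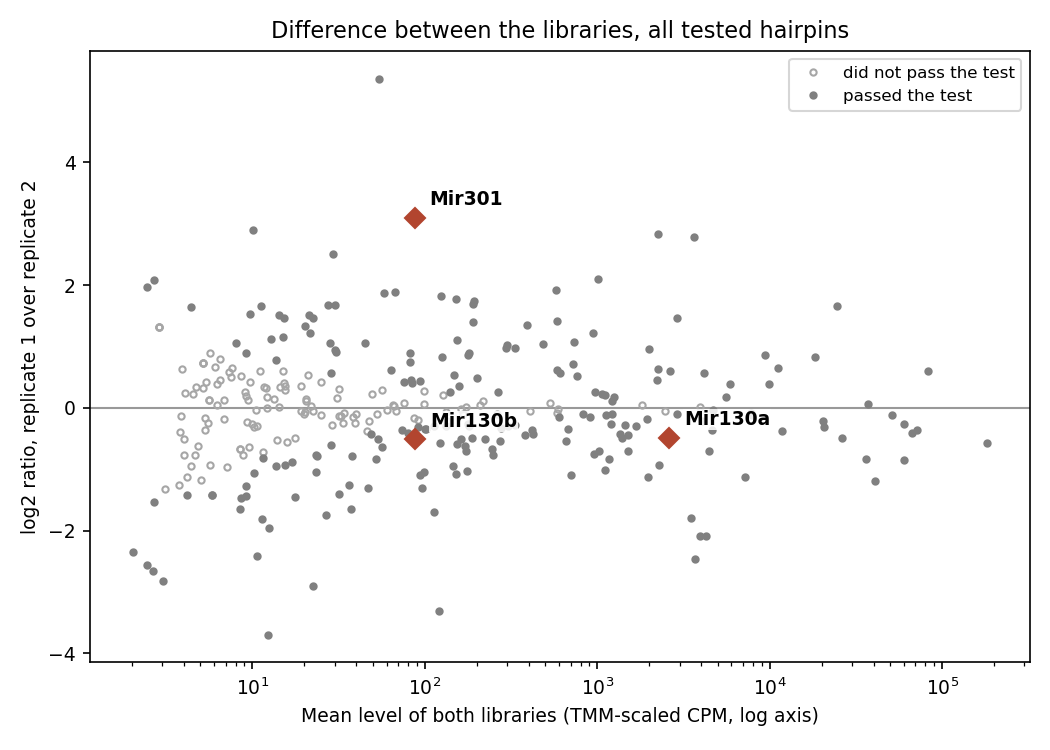
Each point is 1 of the 326 tested hairpins, with the mean TMM-scaled CPM on the x axis (log axis) and the log2 ratio of replicate 1 over replicate 2 on the y axis; filled points passed the exact binomial test. Mir301 at 3.10 lies near the upper edge, while Mir130a at -0.49 and Mir130b at -0.51 lie among the bulk of the hairpins.

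Set against the separate loci as a whole, the cluster had a share that differed little between the libraries. In replicate 1 it held 161 of the family's 5351 reads, or 3.01% with an exact interval of 2.57 to 3.50%. In replicate 2 it held 260 of 7821 reads, or 3.32% with an interval of 2.94 to 3.75%, and the mean was 3.17% ± 0.223. Fisher's exact test of cluster and separate-locus counts by library, two-sided and free of any scaling, gave an odds ratio of 0.902 (exact interval 0.734 to 1.11, p = 0.338). The interval leaves room for a cluster share lower or higher in replicate 1.

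That comparison was set almost wholly by Mir130a, and the separate loci did not behave as a pair. Comparisons between single members were chosen after their values were seen and are given without a p. Mir130b against Mir130a had an odds ratio of 0.981 (interval 0.797 to 1.20) for replicate 1 over replicate 2. Mir301 against Mir130a had an odds ratio of 12.6 (9.14 to 17.8), and Mir301 against Mir130b one of 12.8 (8.74 to 19.1). With Mir301 as the only separate locus, the odds ratio of the cluster was 0.0766 (0.0514 to 0.112).

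Mir301 made up 6.52% of the family's reads in replicate 1, with an exact interval of 5.88 to 7.22%. In replicate 2 its share was 0.550%, with an interval of 0.398 to 0.740%. There were 2.17 Mir301 reads per Mir130b read in replicate 1 and 0.169 in replicate 2.

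**Figure D4:**
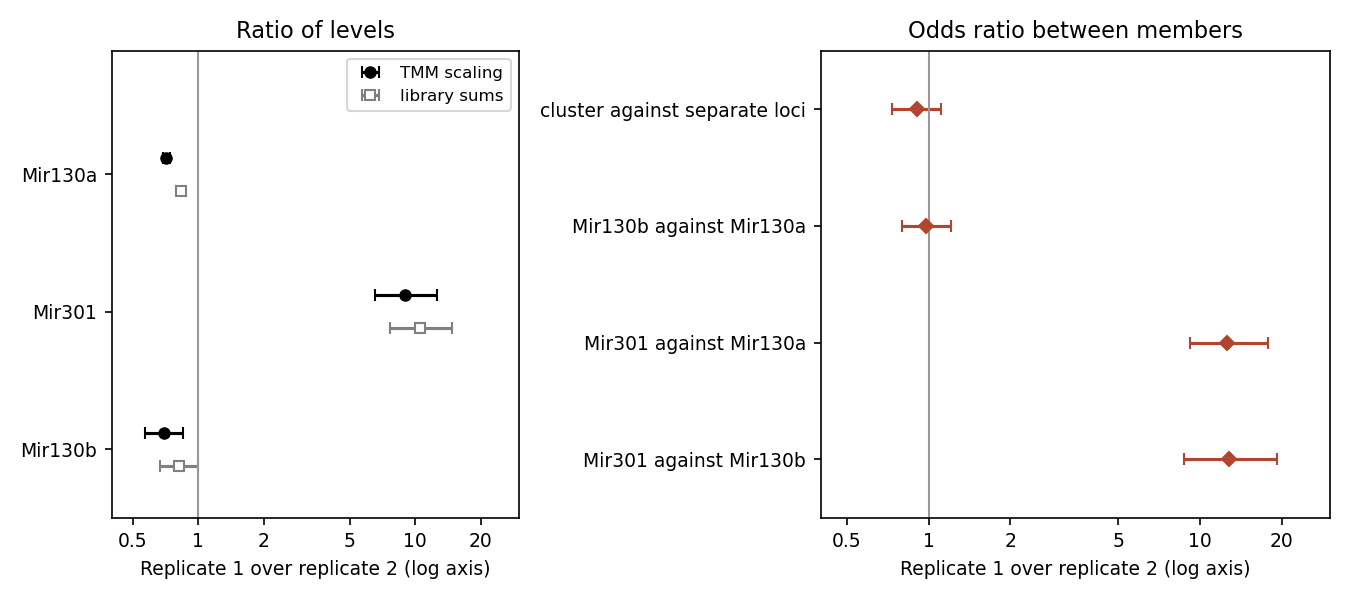
Left, ratio of levels of replicate 1 over replicate 2 for each tested member, with TMM scaling (filled circles) and by library sums (open squares). Right, odds ratios of replicate 1 over replicate 2 between members, which need no scaling; x axes are log axes and bars are 95% exact intervals. Mir130a and Mir130b differ by an odds ratio of 0.981, while both odds ratios of Mir301 exceed 12.

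Within the cluster, reads came almost entirely from Mir130b. Mir301b supplied 0 of 161 cluster reads in replicate 1 (exact interval 0 to 2.27%). In replicate 2 it supplied 5 of 260, or 1.92% (exact interval 0.627 to 4.43%), and the intervals overlap. Shares among neighbouring hairpins are of counted reads only, since reads matching several places entered no count, and a low share need not be a low output. Of the 77 pairs of adjacent hairpins on 1 strand within 1000 bp and with at least 100 summed counts, the less abundant hairpin held a median of 4.08% of the pair's reads. In 23 pairs it held less than the 1.19% of Mir301b over both libraries. Some of these pairs had 0 reads of the less abundant hairpin, such as Gm22678 beside Mir467d. A hairpin can also be in more than 1 pair, as Mir19a is.

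As a whole, the family held 0.261% of all hairpin counts in replicate 1, with a Wilson interval of 0.254 to 0.268%. Its share was 0.294% in replicate 2, with an interval of 0.287 to 0.300%, and the mean was 0.277% ± 0.0233. Counting without regard to strand left the counts of Mir130b, Mir301 and Mir301b as they were and gave Mir130a 4844 in place of 4841 in replicate 1. Opposite-strand reads at the 4 hairpins thus numbered 3 in replicate 1 and 0 in replicate 2.

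Hairpins of related seed or function gave a mixed picture. miR-19, from the miR-17-92 cluster and its paralog, has a seed shifted by 1 base that overlaps the family's seed, as the capitals (bases 2 to 8) show.
mmu-miR-19a-3p: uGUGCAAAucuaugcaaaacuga
mmu-miR-19b-3p: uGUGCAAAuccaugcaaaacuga

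Of the 3 miR-19 hairpins, none reached 10 counts: Mir19a and Mir19b-1 each had 2 reads in replicate 1 and 1 read in replicate 2, and Mir19b-2 had 0 in both. miR-19b-3p is the same in Mir19b-1 and Mir19b-2, and reads matching both loci would enter neither count.

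In pulmonary vessels, miR-130/miR-301 has been tied to miR-204 in smooth muscle and to the miR-424/miR-503 pair in endothelium, of which Mir322 is the mouse form of miR-424. In replicate 1, 2 of these 3 hairpins were lower and 0 higher, where 36.2% and 26.4% of all tested hairpins were. Mir204 was counted 122 times in replicate 1 and 338 times in replicate 2 (log2 ratio -1.31, adjusted exact binomial p = 1.59e-19). Mir322 had 7536 and 13588 counts (log2 ratio -0.70, adjusted exact binomial p = 5.68e-262). Mir503 did not pass, with 187 and 239 counts (log2 ratio -0.21, adjusted exact binomial p = 0.203, and 0.02 by total count).

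The hairpins nearest to each member by level were found as the smallest distance in log2(CPM + 1) over the 2 libraries, a description of 2 points each. Only the hairpins with at least 10 counts in replicate 1 or replicate 2 were searched. Mir130a was nearest to Mir499 (distance 0.33), followed by Mir674 and Mir127. Mir130b was nearest to Mir409 (0.17), with 88.3 and 93.2 CPM in replicates 1 and 2, then to Mir433 and Mir503. Mir301 had no such close match. Its nearest rows were Snord43 (0.85), with 237 and 69 counts, and Mir6236 (0.89), with 204 and 60 counts, then Mir26a-2 (1.51). Snord43 is listed as a microRNA gene in the annotation although its symbol is that of a small nucleolar RNA. Mir301b itself lies below that minimum, so hairpins as low as it were not among those searched. The nearest of the rest were Mir129-1, Mir146b and Mir380, each with 0 counts in replicate 1 and 10 to 13 in replicate 2.

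Hairpins that mark cell types also differed between the libraries, as 62.6% of all tested hairpins did (26.4% higher and 36.2% lower in replicate 1). In bulk tissue fewer cells of a type and less RNA per cell cannot be told apart. All 3 erythroid hairpins (Mir486, Mir451a and Mir144) were higher in replicate 1, as Mir301 was, with a summed level of 1783 CPM there and 869 CPM in replicate 2. The endothelial Mir126a was also higher, at 108082 and 60950 CPM. Of the epithelial hairpins, Mir205 was higher in replicate 1 (238 and 4 counts) while Mir200c and Mir203 were lower, and the list summed to 349 and 340 CPM. Mir200c passed with TMM but not by total count (adjusted exact binomial p = 0.821). Of the fibroblast hairpins, Mir214 was higher and Mir21a lower (log2 ratio -0.18, or 0.05 by total count), with sums of 6225 and 2411 CPM.

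Both smooth muscle and pericyte hairpins (Mir143 and Mir145a) were lower in replicate 1, as Mir130a and Mir130b were, with sums of 29354 and 48287 CPM. Of the 4 leukocyte hairpins, 3 were lower and Mir155 was higher, and the list had nearly equal sums of 4647 and 4648 CPM. The 3 hairpins of heart muscle went different ways. Mir208a was lower, Mir208b was higher, and Mir499 did not pass with TMM (log2 ratio -0.05) and was higher by total count (0.18). Their sums were 4440 and 8291 CPM, of which Mir208a was 1620 and 5862 CPM. The liver hairpin Mir122 was lower, at 22.9 and 203 CPM. None of the 19 hairpins of these lists was at 0 in both libraries, whereas 5 of the 6 neuronal hairpins were. The neuronal hairpins are numbered copies of Mir124a and Mir9. Reads matching several places entered no count, so a 0 there need not be absence of the microRNA. The part of the marker hairpins in the differences of the family was not tested.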

How the data were processed

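MicroRNA-seq libraries of heart tissue from 2 mice of 1 group were analysed. Raw counts per hairpin were used as deposited, with no normalization by the authors. Per the file headers of the notes deposited with them, the authors used the mm10 assembly and GENCODE M21, while names and versions of an aligner or counter are not given in the sources used here. Reads on the hairpin's own strand were taken. Rows naming no hairpin (59.0% and 58.8% of reads in replicates 1 and 2) stayed out of library sums, and all 2202 identifiers matched GENCODE M21. Reads matching several places appear only in such a row. With 1 group, edgeR's quasi-likelihood test had no contrast.

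TMM factors came from edgeR 4.0.16 in R 4.3.3, and tests and intervals from scipy 1.17.1. Log2 ratios used a pseudocount of 1 CPM, and the threshold was an adjusted p of 0.05. The test was tested on simulated data that held counting error only, the error it assumes. Variation between animals was not simulated. Named hairpins were the 4 members, hairpins sharing their 3p seed, the miR-19 hairpins, Mir204, Mir322 and Mir503, the 3 nearest to each member, and cell type markers. Members and lists were chosen with earlier results of these data known. Alternatives covered the unstranded column, scaling, count minimums, pseudocounts, library totals, the 10 highest hairpins and each replicate. The depth gives the floors of 3 counts stated with the values.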

Additional observations from a re-analysis of the deposited data

Results flagged for a closer look

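Reads that matched several places in the genome lie outside the hairpin counts and numbered 1925044 in replicate 1 and 2686901 in replicate 2. They are listed only because they exceed the 3 counts that a count of 0 allows, and how many of them carry a sequence of the miR-130/miR-301 family was not tested.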

How the results depend on the processing

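No paired analysis was possible because both libraries belong to 1 group. Scaling by total count left Mir130b short of the threshold, with a log2 ratio of -0.28. Levels in CPM follow the total they are divided by, while the members' own counts differed by at most 3 reads between columns. In the unstranded column, Mir130a had 3667 CPM, Mir130b 123 CPM and the family 0.392% of counts. Over all reads, these values were 1066 CPM, 35.8 CPM and 0.114%. Without the 10 highest hairpins, Mir130a had 8385 CPM, Mir130b 282 CPM, Mir301 273 CPM, Mir301b 3.32 CPM and the family 0.894%. From each replicate alone, the levels ranged from 2361 to 2825 CPM for Mir130a, 78.5 to 95.8 CPM for Mir130b, 16.2 to 170 CPM for Mir301 and 0 to 1.88 CPM for Mir301b. The family share ranged from 0.261% to 0.294% and the cluster share from 3.01% to 3.32%. Adding the same-seed hairpins changed neither share, since they had 0 counts. Across the alternatives run, the log2 ratio of Mir301 stayed between 2.85 and 3.32 and that of Mir130a between -0.49 and -0.26, and both passed the test in each. The odds ratio of the cluster was 0.902 in the unstranded column, 0.962 without Mir301 and 0.0766 without Mir130a, and leaving out either was chosen after seeing the data. Hairpins called numbered 176 to 193 under the alternatives, against 204 of 326 tested. The share called moved with the count minimum. It was 176 of 223 with at least 50 counts, and 190 of 648 with no filter beyond 1 count. Depth limits Mir301b, with at most 5 counts.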
